A study of Homo sapiens with 12 samples.

Results

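The comparison described here set pools of OVCAR3 cells that had evolved under repeated pulses of hydroxychloroquine (HCQ) against control pools of the same line. Its members were the 6 RNA-seq libraries labelled OVCAR3 out of 12 in the series, 3 of HCQ-evolved and 3 of control cells, and all genes with at least 1 CPM (counts scaled to a common library size) in at least 3 of these 6 libraries, which left 12204 of 28278 genes. Of the tested genes, 11439 reached 1 CPM in all 6 libraries and 259 in exactly 3, while 244 genes just outside the filter reached it in 2. OVCAR3 is an established ovarian cancer cell line. HCQ-evolved cells were labelled passage 15 and had received 15 pulses of HCQ, each of 48 h followed by fresh medium, and then grew for 7 days without drug before they were collected. Control cells were labelled passage 19 and were passaged without HCQ. Passage number therefore follows the treatment exactly, and the effects of passage and HCQ cannot be told apart. Each library is a pool of wells from the left (L), middle (M) or right (R) part of a 96-well plate, with separate wells carried through every passage, so a pool is a mixture of many small cultures, and all pools of a group came from a single plate as far as the study's methods tell. Values given in triplets below are in the order L, M and R.

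HCQ is a weak base that collects in lysosomes, raises their pH and blocks the fusion of autophagosomes with lysosomes, so that cargo taken up by autophagy is not degraded. RNA was collected after a drug-free week and not during exposure. Immediate early genes, which take up much of the account below, are transcribed within minutes of growth factor, calcium or stress signals and do not need new protein synthesis. Interferon-stimulated genes and hypoxia targets are programs with known promoter elements, and mitotic genes rise and fall with the share of dividing cells. As these are bulk pools, a change in the share of cells that express a gene and a change in RNA per cell cannot be told apart.

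Libraries held 31147822 to 59965861 counts. HCQ-evolved L and M were close to each other (SD of the log2 difference over genes 0.23), but HCQ-evolved R stood apart from both (0.74 and 0.79), further than control pools stood from each other (0.41 to 0.62). A first principal component with 56.1% of the variance placed HCQ-evolved R alone at its far end. Libraries also differed along transcript length, with Spearman's rho across genes between a library's deviation and length of 0.53 in HCQ-evolved R and 0.48 in control M, and between -0.41 and -0.32 in the other 4 libraries. Medians of the main lists are therefore also given without HCQ-evolved R. Markers were also checked against the label. PAX8, a transcription factor of Müllerian epithelium, was at 13.8, 8.94 and 11.4 CPM in control pools, and MUC16, which encodes the antigen CA125, at 28.2, 22.9 and 12.4 CPM. SOX17, ESR1, EMX2 and PAX2 were at or near 0 in all 6 pools (0 to 0.119 CPM), and WT1 was at 0.0955, 0.363 and 0.390 CPM in control and 1.70, 2.23 and 0.638 CPM in HCQ-evolved pools. OVGP1 was at 10.05, 8.31 and 9.39 CPM in control and 4.03, 5.06 and 3.55 CPM in HCQ-evolved pools. The summed level of this list of 14 genes was 586 to 1258 CPM in control and 761 to 1273 CPM in HCQ-evolved pools. Most of it came from members whose levels are not given here. Genes better known from intestinal epithelium were also expressed, with VIL1 (villin) at 219, 279 and 189 CPM in control and 128, 112 and 76.8 CPM in HCQ-evolved pools, LGALS4 (galectin-4) at 796, 619 and 658 CPM in control and 469, 432 and 130.1 CPM in HCQ-evolved pools and HNF4A at 65.9, 86.96 and 64.9 CPM in control and 52.7, 42.4 and 19.3 CPM in HCQ-evolved pools. The mean of control pools was 229 CPM for VIL1 and 9.25 CPM for OVGP1. In control pools of CCL218, the other line of the series, labelled as colorectal, these means were 197 and 4.91 CPM, normalised within that line. How far the lines differ in identity was not tested. The data therefore go partly against the label, and pools are called by that label only. Defining markers of fibroblasts (COL1A2, DCN), leukocytes (PTPRC, CD3E) and endothelium (CDH5, KDR) were at 0 to 0.167 CPM. Other genes of these marker lists were expressed, and none was called. LYZ (lysozyme) was at 2118, 2069.5 and 2644 CPM in control and 2040.1, 1843 and 1265 CPM in HCQ-evolved pools. The macrophage marker CD68 was at 11.5, 17.2 and 14.01 CPM in control and 36.8, 39.5 and 26.2 CPM in HCQ-evolved pools (adjusted p = 0.051, and 0.00937 without HCQ-evolved R). The summed level of the immune list was 2096 to 2671 CPM in control and 1314 to 2089 CPM in HCQ-evolved pools, mostly from LYZ. That of the endothelial list, mostly from ESAM, was 47.01 to 54.2 and 58.7 to 75.9 CPM, and that of the fibroblast list 1.66 to 2.53 and 0.671 to 1.92 CPM. Their part in the results was not tested.

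In HCQ-evolved OVCAR3, 79 genes were higher (0.647% of genes tested) and 148 were lower (1.21%) at an adjusted p under 0.05 (edgeR quasi-likelihood test, Benjamini-Hochberg). Genes that fell did so by more than genes that rose. Lower genes had a median fold change of 4.52 and 36 of 148 fell more than 8-fold, while higher genes had a median of 2.55 and 3 of 79 rose more than 8-fold. Of the called genes, 78 of the higher and 140 of the lower were annotated as protein coding. For every one of these 227 genes the 3 HCQ-evolved pools lay on one side of the 3 control pools, which was so for 25.8% of all genes tested, while 1.86% were called in either direction. Of these, 7 higher genes were under 1 CPM in every control pool and 43 lower genes in every HCQ-evolved pool, so they passed the filter only through the group in which they are high. Without HCQ-evolved R the counts were 233 higher and 324 lower, and all 148 lower genes and the 71 higher genes that could still be tested were called again. Without control L, M or R there were 0, 3 and 1 higher genes and 3, 16 and 3 lower genes, and without HCQ-evolved L or M 9 and 3 higher and 40 and 22 lower genes. Without control L, 729 genes were still higher and 621 lower at an unadjusted p under 0.05, against 1023 (8.38%) and 960 (7.87%) with all pools. All 227 genes kept their direction in every fit with 1 pool left out in which they were tested, but only ATF3 and HBEGF were called in all 6 of these fits.

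**Figure D1:**
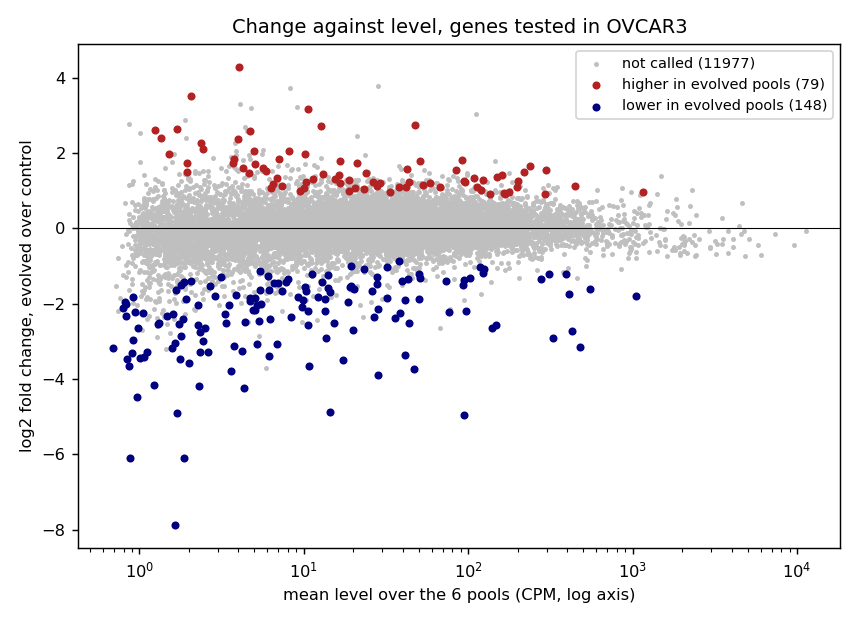
Each point is 1 of 12204 genes tested, placed by its mean level over the 6 OVCAR3 pools (CPM, log axis) and its log2 fold change of HCQ-evolved over control pools. The 148 lower genes (blue) reach down to -7.88 and spread further from 0 than the 79 higher genes (red), which reach 4.29.

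Many immediate early genes were lower in HCQ-evolved pools. This list and those below were chosen with earlier results of these data known, which can raise their shares of called genes. The shares are a description, and no list was tested as a set. Of 29 listed genes 27 were tested, 13 were lower (48.1%, against 1.21% of all genes tested) and none was higher (0 also at an unadjusted p under 0.05, where 23 were lower). Of the 13, EGR3 and EGR4 were under 1 CPM in every HCQ-evolved pool, so these 2 entered the test only through control pools. The median log2 fold change of the list was -1.15, against 0.02 for all genes, and -1.33 without HCQ-evolved R. For 24 of 27 genes every HCQ-evolved pool was under every control pool, which was so for 12.3% of all genes. In each pool the summed level of the list was 8609 to 9733 CPM in control and 3266 to 4426 CPM in HCQ-evolved cells.

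ATF3 (chr1:212565334-212620777, plus strand, hg38), a stress-induced bZIP factor, was at 201, 187 and 157 CPM in control and 7.38, 4.46 and 5.64 CPM in HCQ-evolved pools (log2 fold change -4.96, SE 0.27, adjusted p = 0.000892, edgeR). The groups lay far apart in every pool. Within the EGR family of zinc finger factors, EGR2 was at 18.8, 46.02 and 30.7 CPM in control and 3.94, 2.37 and 2.19 CPM in HCQ-evolved pools (log2 fold change -3.49, SE 0.41, adjusted p = 0.0132). EGR4 was at 5.06, 4.23 and 3.68 CPM in control and 0.735, 0.585 and 0.294 CPM in HCQ-evolved pools (log2 fold change -3.003, SE 0.38, adjusted p = 0.0168). EGR3 had 110, 138 and 169 counts in control pools and 2, 0 and 0 counts in HCQ-evolved pools, so that its fitted log2 fold change of -7.88 (adjusted p = 0.00706) depends on the prior count and gives no bound. EGR1, the most abundant of the family, was at 684, 1685 and 1099 CPM in control and 581, 510.4 and 545 CPM in HCQ-evolved pools, with no overlap between groups, and did not pass the test (log2 fold change -1.08, adjusted p = 0.146). The EGR genes thus differed among themselves, with EGR3 within a few counts of 0 in HCQ-evolved pools and EGR1 still well expressed.

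Members of the AP-1 complex, dimers of FOS and JUN proteins, moved unequally. FOSB fell from 665, 849 and 730.1 CPM to 134, 95.1 and 108 CPM (log2 fold change -2.73, SE 0.22, adjusted p = 0.00604). FOSL1 fell from 114, 73.2 and 50.3 CPM to 23.5, 20.9 and 20.2 CPM (log2 fold change -1.88, SE 0.31, adjusted p = 0.033), and JUN from 1958, 1578 and 1351 CPM to 584, 504 and 330.3 CPM (log2 fold change -1.78, SE 0.28, adjusted p = 0.0289). JUN was one of the 5 most abundant lower genes. FOS, JUNB and JUND had log2 fold changes of -0.78, -0.63 and -1.15 with adjusted p of 0.152, 0.319 and 0.218. FOSL2 was the only member of the list with a positive value (0.38, and -0.10 without HCQ-evolved R).

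The nuclear receptor NR4A1 fell from 276, 237 and 209 to 43.6, 39.1 and 31.98 CPM (log2 fold change -2.65, SE 0.21, adjusted p = 0.00604). Its relative NR4A2 fell from 14.1, 15.8 and 12.2 to 3.06, 1.88 and 3.25 CPM (log2 fold change -2.36, SE 0.27, adjusted p = 0.0128). BTG2, an antiproliferative gene that p53 also induces, fell from 172, 297 and 285 to 49.9, 37.7 and 39.6 CPM (log2 fold change -2.57, SE 0.26, adjusted p = 0.0101). KLF2, a Krüppel-like factor, was at 19.7, 14.4 and 22.3 CPM in control and 8.35, 6.65 and 5.90 CPM in HCQ-evolved pools (log2 fold change -1.43, SE 0.24, adjusted p = 0.0364). CCN1 and CCN2 encode matricellular proteins and are also targets of YAP. CCN1 fell from 50.98, 44.9 and 41.8 to 12.3, 12.5 and 6.40 CPM (log2 fold change -2.14, SE 0.29, adjusted p = 0.0206). CCN2 fell from 51.1, 105 and 103 to 8.15, 9.17 and 2.24 CPM (log2 fold change -3.73, SE 0.57, adjusted p = 0.0272). In both CCN genes HCQ-evolved R was the lowest pool. Among members that did not pass, MYC was at 151, 344 and 358 CPM in control and 194, 159 and 178 CPM in HCQ-evolved pools and the pools overlapped.

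Promoter windows of these genes, from 250 bases before to 50 bases after each start site, were searched on both strands for the cyclic AMP response element TGACGTCA and for the CArG box, the binding site of serum response factor, the latter chosen after the values were seen. Windows were at hand for 9 of the 13 called members. The cyclic AMP response element was in 0 of 9 and in 2 of 21 tested members (9.52%), against 3.85% of genes tested that had a window. One of 9, EGR2, held a CArG box, as did 3 of 21 tested members (14.3%), against 1.47% of genes tested. EGR2 has several annotated start sites, and the window of the one with the match is shown, on GRCh38.p14, chr10:62816317-62816616, minus strand, 5′ to 3′, with the CArG box in capitals.
EGR2: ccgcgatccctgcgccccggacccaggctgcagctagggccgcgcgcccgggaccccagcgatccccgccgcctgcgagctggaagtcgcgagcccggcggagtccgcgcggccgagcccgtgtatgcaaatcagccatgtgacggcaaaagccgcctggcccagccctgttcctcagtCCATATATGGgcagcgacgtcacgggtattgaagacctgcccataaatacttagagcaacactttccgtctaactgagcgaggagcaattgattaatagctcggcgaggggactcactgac

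Lists of epidermal growth factor receptor (EGFR) ligands and of feedback genes of the ERK pathway were examined as well. Only their RNA was measured, and signalling itself was not tested. HBEGF, which encodes a membrane-anchored ligand of EGFR, had the smallest p of all genes. It was at 50.6, 51.6 and 56.8 CPM in control and 3.84, 3.51 and 3.39 CPM in HCQ-evolved pools (log2 fold change -3.89, SE 0.19, adjusted p = 0.000646), and the pools of each group lay close together. The other ligands did not pass. AREG (amphiregulin) was at 50.7, 64.3 and 71.7 CPM in control and 37.9, 38.5 and 12.9 CPM in HCQ-evolved pools (adjusted p = 0.246), EREG and TGFA had overlapping pools, and BTC (betacellulin) had a log2 fold change of 1.01 (adjusted p = 0.119). The receptor genes EGFR, ERBB2 and ERBB3 had log2 fold changes of 0.40, -0.07 and -0.43, none called. Among 19 tested ERK feedback genes and ETS targets 3 were lower, against 1.21% of all genes, and none was higher. At an unadjusted p under 0.05, 1 was higher and 7 lower, against 8.38% and 7.87% of all genes. The list median was -0.28 (-0.27 without HCQ-evolved R). DUSP5, a phosphatase that inactivates nuclear ERK, fell from 32.7, 35.6 and 34.9 to 5.61, 6.43 and 3.81 CPM (log2 fold change -2.70, SE 0.24, adjusted p = 0.00706). SPRY4, a feedback inhibitor of receptor signalling, fell from 58.2, 66.7 and 46.1 to 20.5, 16.4 and 27.9 CPM (log2 fold change -1.40, SE 0.26, adjusted p = 0.046). CCND1 (cyclin D1) fell from 167, 200.1 and 144 to 86.04, 83.3 and 71.6 CPM (log2 fold change -1.08, SE 0.19, adjusted p = 0.038). DUSP6, DUSP2 and SPRED3 lay below control in all 3 pools with adjusted p of 0.0817, 0.058 and 0.0583, while SPRY1, SPRY2, SPRED1 and ETV4 had adjusted p of 0.38, 0.603, 0.449 and 0.553.

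Interferon-stimulated genes were higher. Of 50 tested members 10 rose (20%, against 0.647% of all genes), none fell (1 at an unadjusted p under 0.05), and the median log2 fold change was 0.76 (0.54 without HCQ-evolved R). In 23 of 50 the groups did not overlap and HCQ-evolved pools were the higher, against 13.5% of all genes. IFI44L (chr1:78619902-78646145, plus strand, hg38) was at 0.287, 0.242 and 0.602 CPM in control and 8.75, 7.45 and 6.69 CPM in HCQ-evolved pools (log2 fold change 4.29, SE 0.39, adjusted p = 0.00706). IFI6, a mitochondrial protein with antiviral activity, was at 15.04, 8.58 and 13.2 CPM in control and 111, 103 and 33.99 CPM in HCQ-evolved pools (log2 fold change 2.75, SE 0.47, adjusted p = 0.0364), and the R pool rose least. MX1 and MX2 are dynamin-like GTPases that act on viral nucleocapsids. MX1 was at 4.30, 2.36 and 2.82 CPM in control and 17.8, 12.5 and 9.11 CPM in HCQ-evolved pools (log2 fold change 2.05, SE 0.34, adjusted p = 0.0349). MX2 was at 1.05, 1.36 and 1.45 CPM in control and 7.78, 6.72 and 5.46 CPM in HCQ-evolved pools (log2 fold change 2.37, SE 0.26, adjusted p = 0.0105). OAS2, a sensor of double-stranded RNA that makes 2′-5′ oligoadenylates, was at 4.20, 2.66 and 2.30 CPM in control and 14.03, 9.90 and 9.16 CPM in HCQ-evolved pools (log2 fold change 1.85, SE 0.31, adjusted p = 0.035). IFIH1, the cytosolic RNA sensor MDA5, was at 8.31, 11.8 and 12.5 CPM in control and 27.6, 26.01 and 26.1 CPM in HCQ-evolved pools (log2 fold change 1.29, SE 0.21, adjusted p = 0.0315). Genes for the handling of ISG15, a ubiquitin-like protein, rose as well. The protease USP18 rose from 1.19, 2.51 and 1.45 to 5.83, 5.24 and 5.90 CPM (log2 fold change 1.73, SE 0.32, adjusted p = 0.0471). The conjugating enzyme UBE2L6 rose from 0.860, 0.906 and 0.708 to 5.65, 3.95 and 2.21 CPM (log2 fold change 2.26, SE 0.39, adjusted p = 0.0382). HERC6 and XAF1 rose by 1.32 and 2.40 on the log2 scale (adjusted p = 0.03 and 0.0146). For IFI44L, XAF1 and UBE2L6, 3 of the 10 called, control pools lay below 1 CPM, so that these genes entered the test only through HCQ-evolved pools and could not be tested without R. In IFI44L, IFI6, MX1, MX2, OAS2, UBE2L6 and XAF1 the R pool was the lowest of the HCQ-evolved pools.

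Members that did not pass included IFI44 (5.30, 3.60 and 7.31 CPM in control and 23.5, 26.01 and 10.2 CPM in HCQ-evolved pools, adjusted p = 0.0688) and IFIT1 (13.1, 11.5 and 13.3 CPM in control and 34.8, 33.5 and 17.9 CPM in HCQ-evolved pools, adjusted p = 0.084). None of 12 tested genes of HLA class I antigen presentation passed (1 higher and 0 lower at an unadjusted p under 0.05), with a median of 0.22. HLA-B, whose reads can be split with its close paralogs, was at 3.15, 4.02 and 5.49 CPM in control and 16.8, 15.9 and 5.32 CPM in HCQ-evolved pools (adjusted p = 0.129), with HCQ-evolved R inside the control range and L and M well above it. In the list of NF-kappaB feedback genes BIRC3, an inhibitor of apoptosis, was the only one of 21 called, at 1.72, 2.93 and 2.76 CPM in control and 6.18, 6.36 and 7.87 CPM in HCQ-evolved pools (log2 fold change 1.46, SE 0.28, adjusted p = 0.0484). Over all genes 0.647% were called higher. Apolipoprotein L genes are a family that interferon also induces and whose members are close in sequence. Among 5 tested 2 rose, and the median was 0.82 (0.60 without HCQ-evolved R). APOL1 rose from 99.5, 79.5 and 83.5 to 191, 221 and 288 CPM (log2 fold change 1.41, SE 0.21, adjusted p = 0.0255). APOL4 rose from 3.61, 3.02 and 3.49 to 12.4, 16.4 and 37.8 CPM (log2 fold change 2.72, SE 0.43, adjusted p = 0.0301).

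The interferon-stimulated response element, searched on both strands as 2 copies of GAAA with any 2 bases between them, was in 4 of the 7 called members with a promoter window (57.1%) and in 29 of 40 tested members (72.5%), against 3.69% of all tested genes with a window. IFI44L is shown, as the member that rose most, on GRCh38.p14, chr1:78620198-78620497, plus strand, with its matches at bases 87 and 178 of the window in capitals. Windows of XAF1 and HERC6 held no match to these letters.
IFI44L: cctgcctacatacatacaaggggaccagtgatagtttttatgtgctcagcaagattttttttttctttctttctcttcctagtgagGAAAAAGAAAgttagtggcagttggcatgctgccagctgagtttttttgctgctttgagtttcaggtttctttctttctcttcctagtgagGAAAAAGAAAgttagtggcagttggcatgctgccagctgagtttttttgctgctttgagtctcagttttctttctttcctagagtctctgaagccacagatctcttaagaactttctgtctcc

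Several targets of the hypoxia response were higher as well. Of 40 tested targets outside energy metabolism 9 were higher (22.5%, against 0.647% of all genes) and none was lower (1 at an unadjusted p under 0.05), with a median of 0.76 and the same without HCQ-evolved R (0.77). For 26 of 40 the groups did not overlap in this direction, against 13.5% of all genes. EGLN3, a prolyl hydroxylase that marks HIF subunits for degradation and is itself a HIF target, was at 43.8, 42.5 and 43.96 CPM in control and 116, 136 and 126 CPM in HCQ-evolved pools (log2 fold change 1.54, SE 0.17, adjusted p = 0.0101). DDIT4 (REDD1, an inhibitor of mTORC1; chr10:72273919-72276036, plus strand, hg38) was at 148, 154 and 151 CPM in control and 406, 505 and 425 CPM in HCQ-evolved pools (log2 fold change 1.56, SE 0.17, adjusted p = 0.0101). The collagen prolyl hydroxylase subunit P4HA1 rose from 85.1, 134 and 128 to 338, 414 and 334 CPM (log2 fold change 1.65, SE 0.23, adjusted p = 0.0215). Its relative P4HA2 rose from 74.9, 83.2 and 94.9 to 226, 231 and 188 CPM (log2 fold change 1.35, SE 0.18, adjusted p = 0.0186). BNIP3L, a mitophagy receptor, was at 105, 113 and 121 CPM in control and 194, 214 and 237 CPM in HCQ-evolved pools (log2 fold change 0.92, SE 0.17, adjusted p = 0.0406). QSOX1, a sulfhydryl oxidase of the secretory pathway, was at 249.99, 288 and 298 CPM in control and 569, 614 and 644 CPM in HCQ-evolved pools (log2 fold change 1.13, SE 0.17, adjusted p = 0.027). The adenosine receptor ADORA2B was at 5.37, 6.19 and 6.69 CPM in control and 12.1, 15.2 and 15.9 CPM in HCQ-evolved pools (log2 fold change 1.24, SE 0.21, adjusted p = 0.0335). ANGPT4 and PPFIA4, at lower levels, rose by 1.97 and 1.53 on the log2 scale (adjusted p = 0.0208 and 0.0282). ANGPT4, 1 of the 9 called, was under 1 CPM in every control pool and entered the test only through HCQ-evolved pools. BHLHE40, EGLN1 and PLOD2 also lay above control in all pools, with adjusted p of 0.0517, 0.064 and 0.0742.

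Subunits and regulators of HIF itself did not pass (0 of 7, 0 higher and 1 lower at an unadjusted p under 0.05), with a median of 0.10 and -0.25 without HCQ-evolved R. HIF1A was at 21.8, 74.1 and 33.1 CPM in control and 34.2, 22.1 and 141 CPM in HCQ-evolved pools, so that HCQ-evolved R was the highest pool and L and M lay inside the control range. VHL was at 69.004, 64.9 and 68.3 CPM in control and 57.2, 56.2 and 57.8 CPM in HCQ-evolved pools (adjusted p = 0.513). Among genes of glucose use, 2 of 19 glycolytic enzymes and 2 of 20 genes of transport and regulation rose, against 0.647% of all genes, and none fell. At an unadjusted p under 0.05, 13 and 9 were higher (8.38% of all genes) and 0 and 1 lower. PFKFB4, a kinase and phosphatase that sets fructose 2,6-bisphosphate, was at 19.3, 26.02 and 23.1 CPM in control and 75.5, 79.01 and 80.998 CPM in HCQ-evolved pools (log2 fold change 1.78, SE 0.19, adjusted p = 0.0101). GBE1, the glycogen branching enzyme, was at 8.31, 10.998 and 9.94 CPM in control and 24.9, 31.8 and 40.9 CPM in HCQ-evolved pools (log2 fold change 1.74, SE 0.24, adjusted p = 0.0218). The glycolytic isozyme ALDOC was at 124, 107 and 113 CPM in control and 339.7, 386 and 238 CPM in HCQ-evolved pools (log2 fold change 1.48, SE 0.22, adjusted p = 0.0241). ENO2, an enolase isozyme, was at 43.6, 41.7 and 36.6 CPM in control and 128, 129 and 169 CPM in HCQ-evolved pools (log2 fold change 1.81, SE 0.19, adjusted p = 0.0101). The glucose transporter SLC2A1 (GLUT1) was at 549, 788 and 665 CPM in control and 1191, 1187 and 1503 CPM in HCQ-evolved pools and the lactate exporter SLC16A3 (MCT4) at 148, 132 and 153 CPM in control and 240.1, 268 and 247 CPM in HCQ-evolved pools, above control in every pool with adjusted p of 0.0799 and 0.0521. PDK4 and PFKFB2 lay below control in every pool without passing (adjusted p = 0.217 and 0.318).

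The core of the hypoxia response element, searched as ACGTG on both strands, was in 5 of 8 called hypoxia targets with a window (62.5%) and 22 of 32 tested targets (68.8%), against 32.4% of tested genes. DDIT4 is shown, as the called target with the smallest p that held a match, on GRCh38.p14, chr10:72273674-72273973, plus strand, with the match at base 126 in capitals. EGLN3 and P4HA2 held no match in their windows.
DDIT4: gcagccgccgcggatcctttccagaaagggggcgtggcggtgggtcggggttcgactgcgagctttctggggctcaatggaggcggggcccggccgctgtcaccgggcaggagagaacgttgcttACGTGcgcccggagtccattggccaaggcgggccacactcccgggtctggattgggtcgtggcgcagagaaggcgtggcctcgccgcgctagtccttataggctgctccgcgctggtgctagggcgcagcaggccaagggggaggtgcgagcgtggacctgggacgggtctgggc

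**Figure D2:**
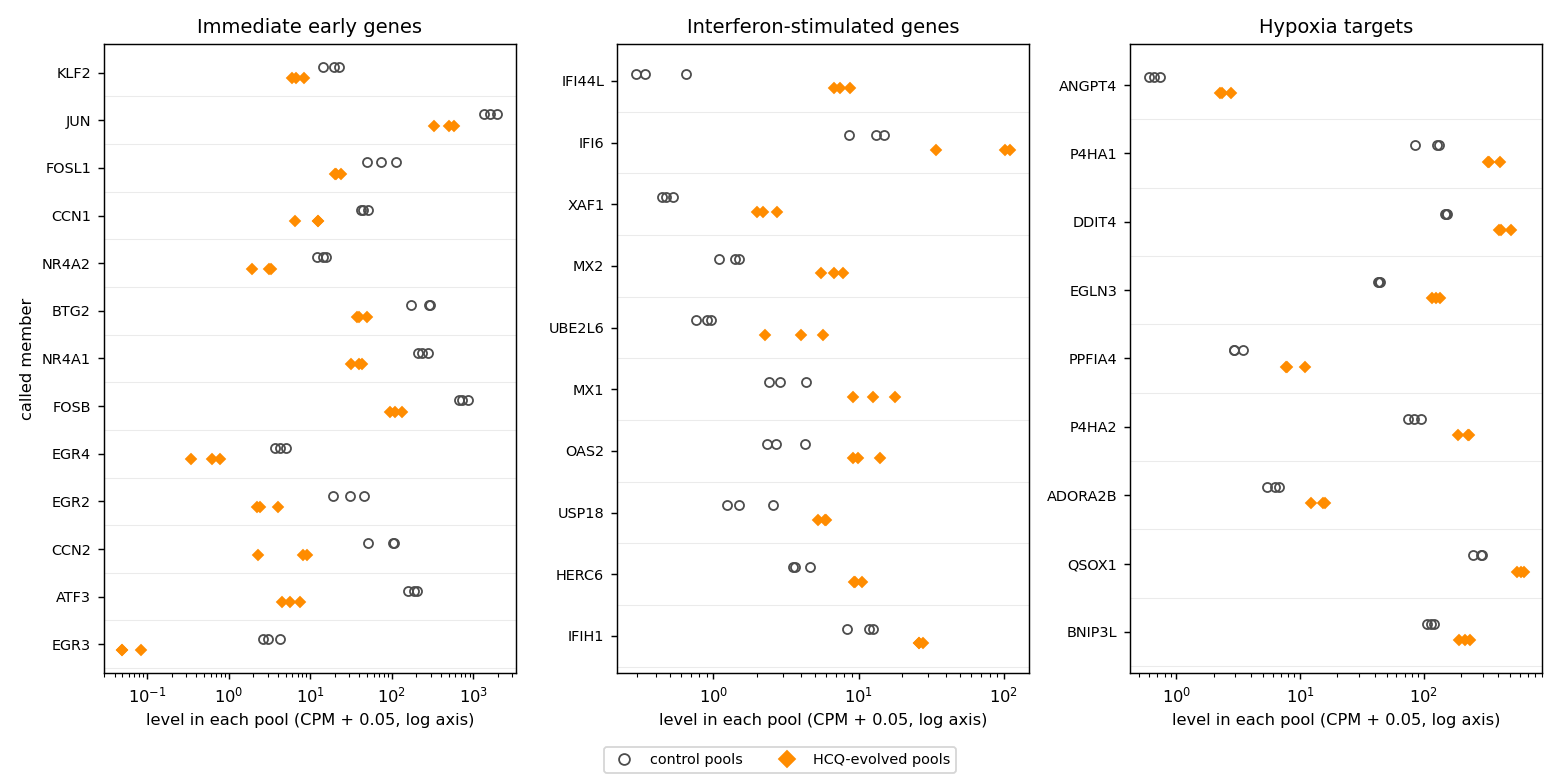
Level of each called member of 3 lists in single OVCAR3 pools (CPM plus 0.05, log axis), with control pools as circles and HCQ-evolved pools as diamonds. For every gene shown the groups do not overlap. Immediate early genes lie lower in HCQ-evolved pools, with EGR3 at 0 to 0.0334 CPM, and interferon-stimulated genes and hypoxia targets lie higher.

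Some genes of the cell cycle were also higher. Of 40 tested kinetochore and spindle checkpoint genes, 4 rose, against 0.647% of all genes, and none fell. At an unadjusted p under 0.05, 30 were higher (8.38% of all genes) and 0 lower, and the median log2 fold change was 0.90 (0.79 without HCQ-evolved R). AURKA, a kinase of the spindle poles, was at 73.5, 82.7 and 82.9 CPM in control and 151, 155 and 174 CPM in HCQ-evolved pools (log2 fold change 1.01, SE 0.16, adjusted p = 0.0309). NEK2, a kinase that splits the centrosomes, was at 32.6, 33.7 and 39.7 CPM in control and 74.8, 84.4 and 85.8 CPM in HCQ-evolved pools (log2 fold change 1.21, SE 0.18, adjusted p = 0.0239). CENPA, the histone H3 variant of centromeres, rose from 15.4, 17.5 and 19.4 to 36.7, 37.4 and 39.9 CPM (log2 fold change 1.12, SE 0.18, adjusted p = 0.0289). CDC20, which activates the anaphase-promoting complex, rose from 102, 85.6 and 92.5 to 174, 175 and 179 CPM (log2 fold change 0.91, SE 0.16, adjusted p = 0.038). Among motors and cohesion genes KIF2C, a microtubule depolymerase, rose from 71.7, 70.7 and 72.9 to 143, 155 and 162 CPM (log2 fold change 1.10, SE 0.16, adjusted p = 0.0218). CDCA5 (sororin) rose from 40.996, 59.7 and 70.96 to 127, 133 and 138 CPM (log2 fold change 1.22, SE 0.23, adjusted p = 0.0484). The median of 12 mitotic kinesins was 1.01 with all pools and 0.61 without HCQ-evolved R, and that of 23 condensin and cohesin genes went from 0.73 to 0.48.

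Of 26 cyclins, their kinases and inhibitors 5 rose and 1 fell, against 0.647% and 1.21% of all genes. CDK1 was at 64.2, 62.6 and 87.8 CPM in control and 164, 205 and 157 CPM in HCQ-evolved pools (log2 fold change 1.29, SE 0.21, adjusted p = 0.0318). CCNB1 was at 114, 112 and 122 CPM in control and 218, 231 and 209 CPM in HCQ-evolved pools (log2 fold change 0.92, SE 0.15, adjusted p = 0.0336). CCNB2 was at 113, 112 and 135 CPM in control and 226, 259 and 216 CPM in HCQ-evolved pools (log2 fold change 0.96, SE 0.17, adjusted p = 0.0409). Inhibitors of cyclin-dependent kinases were divided. CDKN2C (p18) rose from 19.5, 22.9 and 22.3 to 57.5, 66.5 and 67.5 CPM (log2 fold change 1.57, SE 0.18, adjusted p = 0.0124). CDKN2D (p19) rose from 17.3, 12.2 and 15.7 to 29.8, 31.9 and 32.3 CPM (log2 fold change 1.05, SE 0.20, adjusted p = 0.0471). CDKN1A (p21) instead fell from 55.5, 63.7 and 66.2 to 26.8, 20.3 and 25.6 CPM (log2 fold change -1.35, SE 0.19, adjusted p = 0.0218). All 39 tested replication genes had a positive log2 fold change, against 6299 of 12204 over all genes. Their median was 0.54 (0.55 without HCQ-evolved R), and 3 passed, against 0.647% of all genes called higher. GINS1, of the replicative helicase, was at 20.5, 26.2 and 31.8 CPM in control and 58.2, 68.7 and 57.1 CPM in HCQ-evolved pools (adjusted p = 0.04). RFC3, of the clamp loader, was at 20.9, 24.7 and 26.5 CPM in control and 50.8, 50.6 and 52.9 CPM in HCQ-evolved pools (adjusted p = 0.0309). RRM2, the small subunit of ribonucleotide reductase, was at 98.9, 137 and 147 CPM in control and 243, 267 and 300.4 CPM in HCQ-evolved pools (adjusted p = 0.0484).

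Several mucins and genes of the secretory lineage were lower. Of 8 tested mucins 3 fell, against 1.21% of all genes, with a median of -0.99 (-0.76 without HCQ-evolved R). The gel-forming mucin MUC5AC was at 69.4, 61.004 and 49.8 CPM in control and 14.01, 14.8 and 6.08 CPM in HCQ-evolved pools (log2 fold change -2.37, SE 0.36, adjusted p = 0.0266). MUC5B was at 18.8, 21.2 and 16.6 CPM in control and 5.83, 6.14 and 4.12 CPM in HCQ-evolved pools (log2 fold change -1.82, SE 0.23, adjusted p = 0.0162). MUC2, the mucin of intestinal goblet cells, was at 8.81, 10.8 and 5.38 CPM in control and 2.36, 1.61 and 1.54 CPM in HCQ-evolved pools (log2 fold change -2.18, SE 0.33, adjusted p = 0.0276). Mucins hold tandem repeats, so their levels are uncertain. The membrane mucins MUC1, MUC13, MUC16 and MUC20 did not pass, with log2 fold changes from -0.29 to 0.49. The remaining tested mucin, not named here, did not pass either. At an unadjusted p under 0.05, 4 of 8 mucins were lower and 0 higher, against 7.87% and 8.38% of all genes. In a wider list of goblet and secretory lineage genes, drawn up after the values were seen, 7 of 20 tested members fell (1.21% of all genes), 14 had an unadjusted p under 0.05 in the same direction (7.87% of all genes), and 19 of 20 had a negative log2 fold change. ATOH1, the factor that commits cells to the secretory lineage, was at 8.31, 11.4 and 11.7 CPM in control and 2.94, 2.16 and 0.818 CPM in HCQ-evolved pools (adjusted p = 0.0479). The mucus protein FCGBP was at 50.9, 41.9 and 58.4 CPM in control and 15.98, 16.1 and 9.58 CPM in HCQ-evolved pools (adjusted p = 0.0223). The sialyltransferase ST6GALNAC1 was at 5.25, 7.95 and 6.98 CPM in control and 0.969, 0.840 and 0.491 CPM in HCQ-evolved pools (adjusted p = 0.0104). Both fell in every pool, as did HEPACAM2, at 6.90, 10.3 and 9.85 CPM in control and 2.04, 2.19 and 0.720 CPM in HCQ-evolved pools (adjusted p = 0.04). SPDEF was at 116, 118 and 118 CPM in control and 85.8, 92.9 and 91.6 CPM in HCQ-evolved pools, not called. Intestinal markers gave no call, with 0 of 11 tested past the threshold (0 higher and 3 lower at an unadjusted p under 0.05), a median of -0.79, and a summed level of 1019 to 1247 CPM in control and 281 to 792 CPM in HCQ-evolved pools. Among them KRT20 and GUCY2C were at 0 to 0.0604 CPM. Their part in the result on mucins was not tested.

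WNT signalling is fed back by secreted inhibitors and drives stem cell genes of the intestine. Of 15 tested genes of this list 5 fell (33.3%, against 1.21% of all genes) and none rose (1 higher at an unadjusted p under 0.05), with a median of -0.54 (-0.82 without HCQ-evolved R). ASCL2, a stem cell factor, was at 42.9, 19.7 and 28.9 CPM in control and 10.6, 10.2 and 9.32 CPM in HCQ-evolved pools (log2 fold change -1.60, SE 0.29, adjusted p = 0.0456). The inhibitor NOTUM, which removes the lipid from WNT proteins, fell from 8.55, 5.92 and 7.99 to 1.74, 1.15 and 1.13 CPM (log2 fold change -2.48, SE 0.29, adjusted p = 0.0128). DKK1, which binds the LRP coreceptors, fell from 9.86, 10.1 and 13.4 to 4.03, 3.95 and 2.62 CPM (log2 fold change -1.65, SE 0.26, adjusted p = 0.0289). SP5 and PROX1 fell as well (log2 fold changes -1.30 and -2.40, adjusted p = 0.0218 and 0.0389). AXIN2, the usual reporter of the pathway, did not follow them and was at 25.7, 49.3 and 42.04 CPM in control and 61.9, 56.5 and 152 CPM in HCQ-evolved pools, above control in every pool (adjusted p = 0.219), and LGR5, at 20.03, 24.9 and 28.8 CPM in control and 17.3, 13.2 and 31.01 CPM in HCQ-evolved pools, overlapped.

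HES1, a repressor that Notch signalling induces and that keeps ATOH1 off, was among the 5 most abundant lower genes. It was at 1168, 621 and 779 CPM in control and 121, 111 and 56.5 CPM in HCQ-evolved pools (log2 fold change -3.16, SE 0.38, adjusted p = 0.0146), far lower in each HCQ-evolved pool. In a Notch list drawn up after the values were seen, the ligand DLL4 also fell, from 20.6, 23.2 and 22.5 to 6.91, 5.61 and 2.08 CPM (adjusted p = 0.0484). HEY2, another repressor of this class, rose from 0.382, 0.302 and 0.354 to 2.10, 1.64 and 2.65 CPM (log2 fold change 2.61, SE 0.32, adjusted p = 0.0149). With ATOH1, 3 of 20 members fell and 1 rose, against 1.21% and 0.647% of all genes, and the list median was -0.16 (-0.59 without HCQ-evolved R). The receptors NOTCH1, NOTCH2 and NOTCH3 had overlapping pools, and the target NRARP was at 97.8, 94.3 and 112 CPM in control and 67.6, 66.5 and 34.3 CPM in HCQ-evolved pools (adjusted p = 0.181).

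Autophagy and lysosomal genes, the machinery that HCQ acts on, gave no call, where 1.86% of all genes were called, so a count of 0 in lists of this size is near the share over all genes. None of 40 tested autophagy genes passed (1 higher and 1 lower at an unadjusted p under 0.05; median 0.04). ULK1, the kinase that starts autophagy, had the smallest p of the list and was at 51.5, 75.4 and 55.3 CPM in control and 111, 110.2 and 115 CPM in HCQ-evolved pools, above control in all pools (adjusted p = 0.0732, and 0.0546 without HCQ-evolved R). The cargo receptor SQSTM1 (p62) was at 409, 362 and 426 CPM in control and 403, 360.5 and 286 CPM in HCQ-evolved pools with overlapping pools. MAP1LC3B, which encodes the autophagosome protein LC3B, was at 81.3, 68.1 and 77.9 CPM in control and 59.4, 57.5 and 45.96 CPM in HCQ-evolved pools, below control in all pools (adjusted p = 0.254). None of 53 lysosomal genes passed (7 higher and 2 lower unadjusted; median 0.11), the smallest p being that of the protease CTSS at 10.8, 10.03 and 12.6 CPM in control and 25.99, 27.5 and 14.98 CPM in HCQ-evolved pools (adjusted p = 0.103), and none of 26 cholesterol genes passed (3 higher and 2 lower unadjusted). TFEB and TFE3, the factors that induce lysosomal genes, had log2 fold changes of 0.13 and 0.04.

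Ribosomal protein genes showed how far a single pool, such as HCQ-evolved R, sets a value. None of 47 large and 31 small subunit genes passed (0 at an unadjusted p under 0.05 in either direction). Their median log2 fold changes were -0.38 and -0.32, and -0.08 and -0.04 without HCQ-evolved R. Over all fits with 1 pool left out they ranged from -0.63 to -0.08 and from -0.57 to -0.04. Leaving out at least 1 of the other pools thus moved them further below 0. Against the mean of control pools the large subunit genes stood at -0.14 and 0.10 in HCQ-evolved L and M and at -1.14 in R (median log2 difference, CPM plus 0.5). In 75 nuclear-encoded respiratory chain genes the median turned from -0.06 to 0.15 without HCQ-evolved R, and in 72 mitochondrial ribosomal proteins from -0.11 to 0.07. Over all fits with 1 pool left out these medians ranged from -0.30 to 0.15 and from -0.26 to 0.07. With the length and GC trend removed, the medians were -0.39 and -0.26 for the ribosomal subunits, -0.09 for the respiratory chain and -0.11 for mitochondrial ribosomal proteins, so this correction moved them little. Over all genes, among 2963 genes with the shortest transcripts (median length 1750 bases) HCQ-evolved R lay 0.42 below control while L and M lay 0.08 and 0.15 above. Among 2960 genes with the longest transcripts (median 7366.5 bases) R lay 0.46 above and L and M 0.08 and 0.12 below.

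Smaller numbers of calls came from other lists. Over all genes, 0.647% were called higher and 1.21% lower. In the unfolded protein and ATF4 responses 1 of 32 genes fell, PPP1R15A (GADD34), the phosphatase subunit that restores translation after stress, from 778, 514 and 596 to 213, 218 and 134 CPM (log2 fold change -1.74, SE 0.26, adjusted p = 0.0272). Of 25 NRF2 and antioxidant genes GCLM, the regulatory subunit of glutathione synthesis, rose from 14.4, 18.4 and 19.7 to 35.1, 35.7 and 50.5 CPM (adjusted p = 0.0484). AKR1C2, whose near-identical paralogs may take up its reads, fell from 4.97, 1.99 and 5.81 to 0.468, 0.512 and 0.327 CPM (adjusted p = 0.0218). In ketone body metabolism OXCT1, an enzyme of ketone body use, fell from 72, 158 and 256 counts to 2, 1 and 6 counts (adjusted p = 0.0104). HCAR2, the receptor for butyrate and hydroxybutyrate, rose from 4.73, 6.77 and 8.18 to 14.8, 16.003 and 18.2 CPM (log2 fold change 1.31, SE 0.25, adjusted p = 0.0484). CFTR, the chloride channel, was the only one of 13 ABC transporters called, at 127, 158 and 129.7 CPM in control and 58.3, 50.6 and 37.8 CPM in HCQ-evolved pools (log2 fold change -1.498, SE 0.22, adjusted p = 0.0239). Of genes outside the cell, TNC (tenascin-C) rose from 0.478, 0.302 and 0.213 to 2.64, 1.57 and 7.16 CPM (log2 fold change 3.53, SE 0.66, adjusted p = 0.0479). BGN (biglycan) fell from 5.49, 3.26 and 2.90 to 0.702, 0.658 and 0.589 CPM (log2 fold change -2.58, SE 0.34, adjusted p = 0.0174). ADAM8, a metalloprotease, rose from 49.9, 59.04 and 58.5 to 129, 149.9 and 119 CPM (log2 fold change 1.25, SE 0.18, adjusted p = 0.0223). ADAM28 and ADAMTS6 fell (log2 fold changes -2.32 and -2.57, adjusted p = 0.0216 and 0.0229). LY6D, a squamous surface protein, was at 2.48, 1.51 and 2.37 CPM in control and 14.9, 23.3 and 19.3 CPM in HCQ-evolved pools (log2 fold change 3.17, SE 0.29, adjusted p = 0.00706). The basal keratin KRT17 was at 109, 58.6 and 58.8 CPM in control and 9.05, 9.06 and 3.78 CPM in HCQ-evolved pools (log2 fold change -3.37, SE 0.43, adjusted p = 0.0172). The only transcript of the HOXD cluster tested, the long noncoding RNA HAGLR, went from 70, 62 and 94 counts to 4, 0 and 0 counts (adjusted p = 0.0154). No BCL2 family or apoptosis gene passed among 27 (2 higher and 5 lower unadjusted), nor any of 5 metallothionein and zinc genes (1 higher unadjusted).

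By size of change, the 15 highest and 15 lowest genes also held genes outside these lists. RASD1, a Ras-like protein induced by glucocorticoids, was at 35.2, 23.2 and 24.95 CPM in control and 1.40, 1.10 and 0.327 CPM in HCQ-evolved pools (log2 fold change -4.88, SE 0.52, adjusted p = 0.0101). GPC4 (glypican-4) was at 6.88, 10.8 and 7.05 CPM in control and 0.835, 0.365 and 0.0981 CPM in HCQ-evolved pools (log2 fold change -4.24, SE 0.65, adjusted p = 0.0281). IKZF3, a lymphoid zinc finger factor, fell from 4.08, 5.56 and 3.45 to 0.267, 0.110 and 0.327 CPM (log2 fold change -4.19, SE 0.44, adjusted p = 0.0101). ATOH8, a bHLH factor, fell from 6.40, 5.92 and 7.97 to 0.568, 0.731 and 0.164 CPM (log2 fold change -3.80, SE 0.502, adjusted p = 0.0187). DMBT1, a secreted scavenger protein of mucosal surfaces, fell from 3.34, 2.78 and 3.75 to 0.301, 0.0183 and 0 CPM (log2 fold change -4.91, SE 0.92, adjusted p = 0.0484). With 18, 1 and 0 counts in HCQ-evolved pools, the size of this change is uncertain. It ranged from -8.20 to -4.31 over the fits with a pool left out in which DMBT1 was tested. CADPS2, RIMBP2 and CP (ceruloplasmin) were at 1.20 to 2.81 CPM in control pools and at 0 to 0.219 CPM in HCQ-evolved pools, and SSTR5-AS1, an antisense RNA whose reads cannot be told from those of its partner where strand is not used, fell from 20.7, 22.8 and 15.9 to 1.92, 1.83 and 0.932 CPM. Among higher genes, MGAT4A, a Golgi glycosyltransferase, was at 0.788, 1.30 and 1.88 CPM in control and 6.61, 7.03 and 10.4 CPM in HCQ-evolved pools (log2 fold change 2.59, SE 0.37, adjusted p = 0.023). PTGES, a prostaglandin E synthase, was at 4.11, 2.72 and 5.38 CPM in control and 14.2, 16.2 and 18.04 CPM in HCQ-evolved pools (log2 fold change 1.98, SE 0.28, adjusted p = 0.0226). KLHL5 rose to 6.70, 4.68 and 12.6 CPM from 1.91, 1.81 and 2.001 CPM (log2 fold change 2.06, SE 0.38, adjusted p = 0.0476). LINC02432 rose to 3.49, 4.001 and 4.42 from 1.05, 0.816 and 0.868 CPM and LGALS9C, which has near-identical copies, to 2.14, 2.48 and 4.14 from 0.645, 0.423 and 0.354 CPM.

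**Figure D3:**
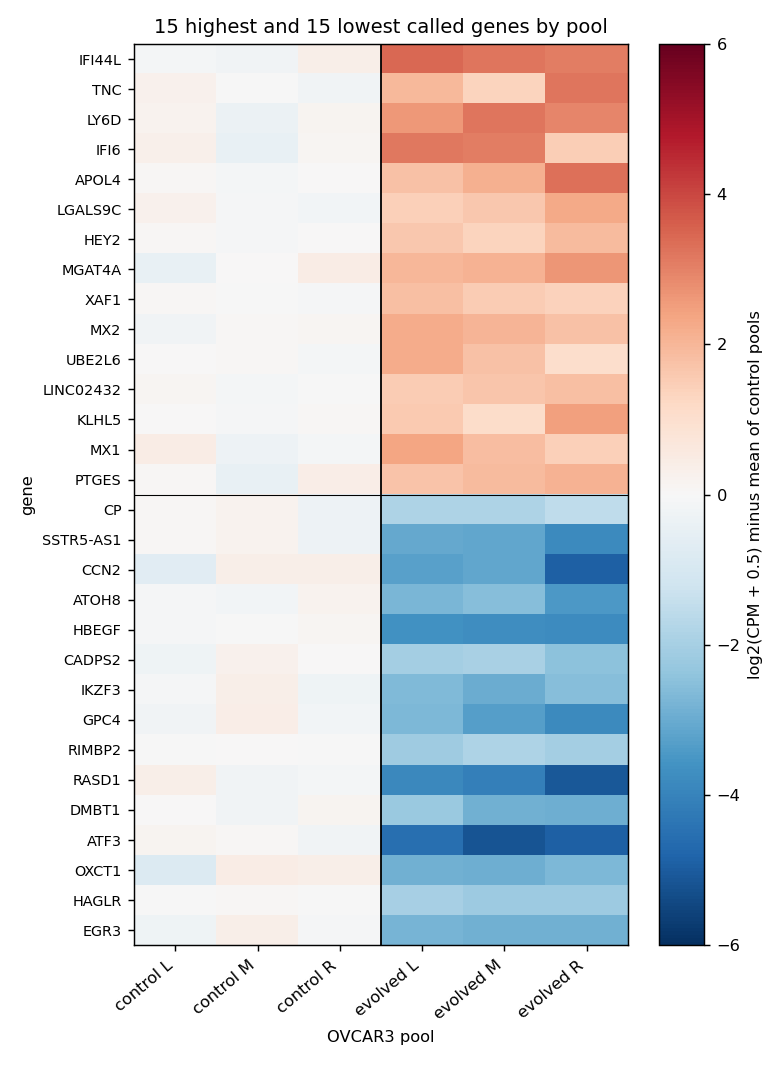
Colour gives the log2(CPM + 0.5) of each gene in each OVCAR3 pool minus the mean of control pools, for the 15 highest and the 15 lowest called genes by log2 fold change. All HCQ-evolved pools lie on one side of control for all 30 genes. Pool R is the weakest of the HCQ-evolved pools for IFI6, MX1 and UBE2L6 and the strongest for APOL4, TNC and KLHL5.

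The most abundant called genes outside the lists were TUBA1B and KPNA2 among the higher and TRIB1 among the lower. TUBA1B, an alpha-tubulin with close paralogs, was at 737, 753 and 833 CPM in control and 1539.7, 1530.2 and 1499.8 CPM in HCQ-evolved pools (log2 fold change 0.98, SE 0.18, adjusted p = 0.0471). KPNA2, an importin, was at 176, 205 and 233 CPM in control and 377, 377 and 399.8 CPM in HCQ-evolved pools (log2 fold change 0.91, SE 0.17, adjusted p = 0.049). TRIB1, a pseudokinase adaptor of the COP1 ubiquitin ligase, was at 682, 915 and 884 CPM in control and 289, 274 and 251 CPM in HCQ-evolved pools (log2 fold change -1.61, SE 0.20, adjusted p = 0.0146). Within each group the 3 pools of TUBA1B and KPNA2 differed by less than the gap between groups.

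**Figure D4:**
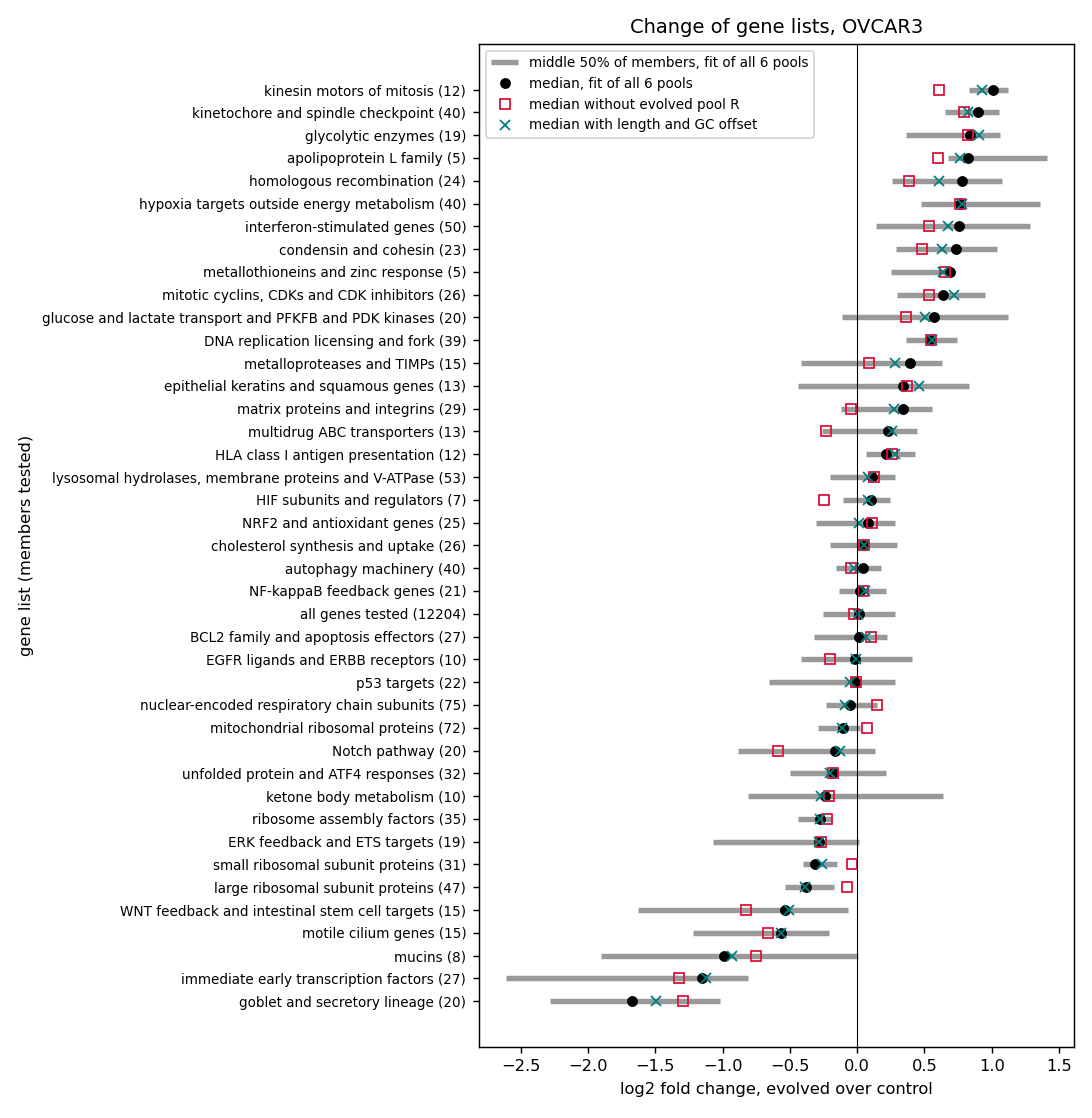
Log2 fold change of gene lists in OVCAR3, with the median over tested members (black), the middle 50% of members (grey bar), the median without HCQ-evolved R (open squares) and the median after removal of a length and GC trend (crosses). Immediate early genes, mucins and the goblet list lie furthest below 0, cell cycle, glycolysis, hypoxia and interferon lists lie above it, and squares leave the black points for ribosomal and respiratory chain lists. The Notch, goblet, p53, motile cilium and homologous recombination lists were drawn up after the values were seen. The other lists were chosen with earlier results of these data known.

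The same evolution was run in CCL218, labelled as a colorectal cancer line, with its own 3 control and 3 HCQ-evolved pools, where 3.82% of genes tested were higher and 2.64% lower. Whether a change differed between the lines was tested as an interaction in a fit of all 12 libraries, where 110 of 12613 genes passed (0.872%). Of the 227 genes called in OVCAR3, 51 passed this test, 43 lower and 8 higher in OVCAR3. These genes were chosen by their change in OVCAR3, and the test uses the same OVCAR3 libraries. That choice alone raises the count above the share over all genes. Of 27 immediate early genes 15 changed differently, and their median log2 fold change in CCL218 was 0.23 with 2 genes higher and none lower there. HBEGF had log2 fold changes of -3.89 in OVCAR3 and -0.47 in CCL218 (difference 3.43, SE 0.19, adjusted p = 1.09e-05, edgeR interaction). For ATF3 the values were -4.96 and -0.26 (adjusted p = 0.00167) and for TRIB1 -1.61 and 0.44 (adjusted p = 0.00167). CDKN1A was called in opposite directions, at -1.35 in OVCAR3 and 1.19 in CCL218 (adjusted p in CCL218 0.00603, of the difference 0.000539). HES1 changed by -3.16 and 0.36 (adjusted p of the difference 0.0258).

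Other lists were compared in the same way. Of 38 hypoxia targets tested there 27 were higher and none was lower, with a median of 1.18, and of 40 members in the joint fit 2 differed, P4HA2 (1.35 in OVCAR3, 2.34 in CCL218, adjusted p of the difference 0.0435) and BHLHE40 (1.02 and 2.67, 0.0197). Interferon-stimulated genes had a median of 0.32 in CCL218, where 5 of 50 were higher and 1 was lower. IFI44L and MX2 differed, rising by 4.29 and 2.37 in OVCAR3 against 1.22 and 0.62 in CCL218 (adjusted p of the differences 0.0104 and 0.0439). Replication genes, with a median of 0.54 in OVCAR3, had one of 0.02 in CCL218 with none of 39 called there (0 higher and 0 lower), and RFC3 and POLA2 passed the test of the difference (0.0121 and 0.0397). WNT feedback genes had a median of -0.66 in CCL218, with 6 of 15 called lower and 1 higher, and ASCL2 had a log2 fold change of -2.60 there (adjusted p of the difference 0.78). Mucins had a median of -0.01 in CCL218, with 1 of 8 called lower and 2 higher. Goblet and secretory lineage genes had a median of -0.52 there, with 6 of 20 called lower and 0 higher. The difference passed for 1 member of each of these lists. MUC5AC had a log2 fold change of -2.31 in CCL218 (adjusted p of the difference 0.999). For genes whose difference did not pass, the changes are not shown to be equal.

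**Figure D5:**
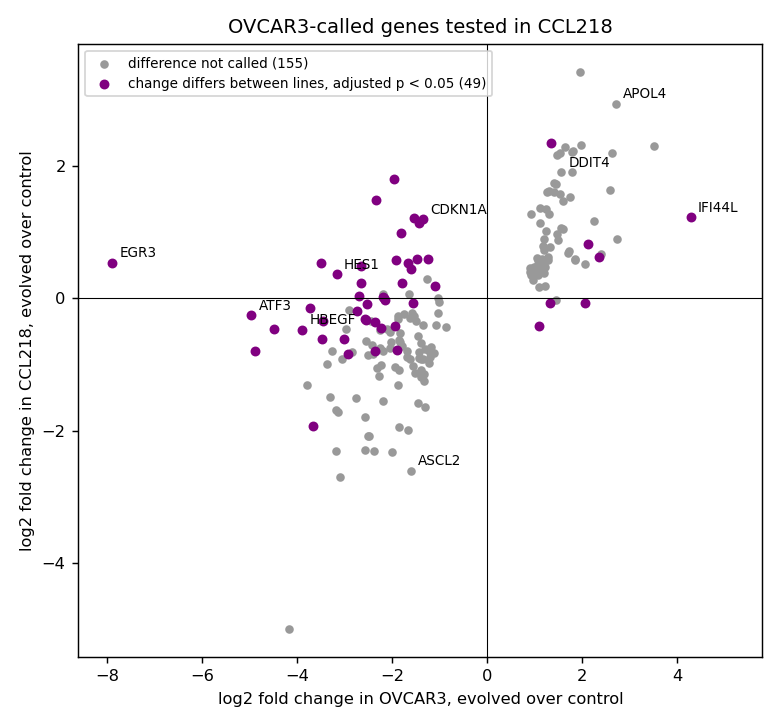
Log2 fold change of HCQ-evolved over control pools in OVCAR3 (horizontal) and CCL218 (vertical) for the OVCAR3-called genes that were also tested in CCL218, with genes whose change differed between lines in purple. EGR3, ATF3 and HBEGF lie far to the left and near 0 on the vertical axis, CDKN1A lies above 0 in CCL218, and APOL4, DDIT4 and ASCL2 have the same sign in both lines.

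Genes were also summarised by chromosome, as a description. Median log2 fold changes lay between -0.09 (chromosome 19) and 0.20 (chromosome 7), against 0.02 for all genes tested. On chromosome 7, 68.7% of 585 genes tested had a positive value, against 6299 of 12204 over all genes. The median there was 0.17, 0.18 and 0.14 in the 3 HCQ-evolved pools against the mean of control pools. It remained 0.17 without HCQ-evolved R and 0.19 after removal of the length and GC trend. Chromosome 22, with a median of 0.15 over 292 genes, differed between pools, at 0.01 and -0.01 in L and M and 0.31 in R, and its median was -0.02 without R. On chromosome 15 the 3 pools lay at 0.09, 0.11 and 0.17. On chromosome 13, 65.3% of 219 genes had a positive value, with a median of 0.15 and the 3 pools at 0.07, 0.09 and 0.18. The median of chromosome 13 was 0.06 without HCQ-evolved R. Called genes on chromosome 7 were 2 higher and 6 lower among 585.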

How the data were processed

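The authors sequenced polyadenylated RNA with paired-end reads, aligned them with STAR to hg38, removed duplicates and counted reads per gene with featureCounts (versions and strand setting not given in the sources used here). Deposited values are raw counts. Between 78.7 and 81.6% of counts of 1 to 4 were even, so most fragments were counted at both mates.

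Genes that reached 1 CPM in 3 or more of the 6 OVCAR3 libraries were tested with edgeR 4.0.16 in R 4.3.3 (TMM, robust quasi-likelihood, legacy mode), with Benjamini-Hochberg adjustment over all genes tested and a threshold of 0.05. CPM printed are TMM-normalised. The difference between lines was an interaction in a fit of all 12 libraries. Alternatives used DESeq2 1.42.0, limma 3.58.1, other scaling, no filter, plate position as a block, a spline of transcript length and GC content, and each pool left out. The script was tested on simulated data. Symbols were matched to GENCODE 44 on hg38 (25763 of 28278) for positions, length and GC content. Promoter windows are from RefSeq on GRCh38.p14, a release of the same build. Wells were kept apart through all passages but came from a single starting culture and plate per group, so p-values measure the spread between these pools.

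Genes named were the 15 highest and 15 lowest called genes by log2 fold change, the 5 most abundant called in each direction, every called member of each list and its member of smallest p, the 5 called genes of smallest interaction p, and markers. Some genes that this rule names are not reported here. Other list members are named as examples with their values known. All members and lists were chosen with earlier results of these data known, and the Notch, goblet, p53, motile cilium and homologous recombination lists after the values were seen.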

Additional observations from a re-analysis of the deposited data

Results flagged for a closer look

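In 29 genes named here the change between HCQ-evolved and control pools differed between the lines (edgeR interaction, Benjamini-Hochberg over 12613 genes, adjusted p from 1.09e-05 to 0.05). All had been called in OVCAR3 from the same libraries, and that choice raises their number. Values are the log2 fold change in CCL218 minus that in OVCAR3, so a positive value means that the gene was lower in HCQ-evolved OVCAR3 relative to the change in CCL218. Immediate early genes were the most frequent, with EGR3 at 8.435 (fitted against counts near 0, so it depends on the prior count), ATF3 at 4.724, EGR2 at 4.034, CCN2 at 3.595, NR4A1 at 2.899, KLF2 at 2.596, FOSB at 2.558, EGR4 at 2.401, BTG2 at 2.266, CCN1 at 2.138, JUN at 2.034 and NR4A2 at 1.581. Among genes of growth factor signalling and its feedback HBEGF differed by 3.434, DUSP5 by 2.755, TRIB1 by 2.063 and CCND1 by 1.28. CDKN1A, called in opposite directions in the lines, differed by 2.559.

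HES1 differed by 3.541 and HEY2 by -4.397. HEY2 was under 1 CPM in CCL218 and not tested there on its own (mean 0.240 CPM in control and 0.0701 CPM in HCQ-evolved pools), so its value is fitted against counts near 0 and depends on the prior count. The mucin MUC5B differed by 2.812, RASD1 by 4.109, RIMBP2 by 4.045, SSTR5-AS1 by 1.757 and P4HA2 by 1.011. The change was higher in OVCAR3 for IFI44L (-3.04), MX2 (-1.725), KLHL5 (-2.108), RFC3 (-1.495) and LINC02432 (-1.282). No group held enough pools for a test of single outlying pools.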

How the results depend on the processing

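Higher and lower genes numbered 79 and 148. They numbered 243 and 306 with no filter on low counts, 542 and 563 with DESeq2's Wald test, 424 and 381 with a length and GC offset, and 558 and 607 with all 12 libraries in one fit. With other scaling factors, limma voom and edgeR without legacy mode (added after seeing the data) they stayed within 1.5 times, at 70 to 105 and 147 to 172. With 1 pool left out they ranged from 0 to 233 higher and from 3 to 324 lower, the lowest without control L and the highest without HCQ-evolved R. Genes whose change differed in CCL218 numbered 51, and 33 to 60 with 1 pool left out, 33 without control L.

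Plate position did not pair the pools. Correlations of deviations between pools of the same position were 0.42 (L), -0.69 (M) and -0.50 (R), and not every pool correlated best with its own position. With position as a replicate block 17 genes were higher and 64 lower, of which 16 and 59 were also called without it. With the block and the length and GC offset there were 140 and 187, and 24 genes differed in CCL218 under the block.

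Of 1800 values of named genes under these settings, 0 reversed, 446 lost and 43 gained a call. Of 733 list medians, 44 moved by more than the spread between pools. Leaving out a pool leaves 2 in its group, so those fits hold fewer samples. The cause of the other shifts was not tested.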

Other observations

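Some further groups, drawn up after the values were seen, add to the account of OVCAR3. Among 22 tested p53 targets, 3 fell and 1 rose, against 1.21% and 0.647% of all genes. At an unadjusted p under 0.05, 7 were lower and 3 higher, against 7.87% and 8.38% of all genes. GDF15, a secreted stress cytokine, was at 748, 417 and 559 CPM in control and 113, 83.5 and 34.4 CPM in HCQ-evolved pools (log2 fold change -2.90, SE 0.45, adjusted p = 0.0289, edgeR), while DDB2, a sensor of ultraviolet damage, was at 14.7, 16.2 and 16.1 CPM in control and 33.6, 38.5 and 38.03 CPM in HCQ-evolved pools (log2 fold change 1.23, SE 0.17, adjusted p = 0.0215). The other called members were BTG2 and CDKN1A, both lower, and the list's median was -0.02.

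Of 24 tested genes of homologous recombination 2 rose, against 0.647% of all genes, and none fell (0 also at an unadjusted p under 0.05). Among them RAD54L, a DNA translocase, was at 11.3, 13.8 and 14.6 CPM in control and 25.1, 26.7 and 31.9 CPM in HCQ-evolved pools (log2 fold change 1.07, SE 0.20, adjusted p = 0.0447). The median of 0.78 went to 0.38 without HCQ-evolved R. Of 15 tested motile cilium genes 4 fell, against 1.21% of all genes, and none rose (0 at an unadjusted p under 0.05). FOXJ1, the factor that drives motile ciliogenesis, was at 12.2, 8.19 and 10.3 CPM in control and 3.84, 4.31 and 3.04 CPM in HCQ-evolved pools (log2 fold change -1.46, SE 0.25, adjusted p = 0.0364), and CCDC40, needed for the inner dynein arms, at 9.93, 8.67 and 9.10 CPM in control and 3.64, 2.90 and 2.42 CPM in HCQ-evolved pools (log2 fold change -1.63, SE 0.23, adjusted p = 0.0218). CCDC113 and UBXN10 also fell (adjusted p = 0.0364 and 0.048).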
